A study of Homo sapiens with 9 samples.

Results

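The genes described are 10 enzymes of serine, asparagine, proline, cysteine and one-carbon synthesis: PHGDH, PSAT1, PSPH, SHMT2, MTHFD2, ASNS, PCK2, ALDH18A1, PYCR1 and CTH. They were taken by name, with earlier results of these data known. Every array probe set annotated to one of these symbols alone was used. That gave 19 probe sets for 10 of the 19775 genes that have a probe set of their own. RNA came from PANC-1, an established human pancreatic carcinoma line with duct-like features, and was measured as biotin-labelled copies on Affymetrix arrays, 1 per sample. Cells were given 5 uM of BRD7552, a small molecule, for 72 h (3 arrays), the same dose for 6 h (3 arrays), or DMSO, its solvent (3 arrays, with no exposure time in the labels). The submitters chose the dose as the lowest with full induction of the homeobox gene PDX1. All groups are the same line grown in plates, and nothing in the labels says that the replicates were separate cultures, so the p-values measure the spread between these samples, which may be technical. The labels name no batch. Both exposures were set against DMSO samples of unstated time, so time in culture and BRD7552 cannot be told apart in either comparison. The same holds between 72 h and 6 h, since the labels give no DMSO arrays of each time.

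These enzymes belong to a serine and one-carbon route and to separate routes beside it. PHGDH, PSAT1 and PSPH make serine from the glycolytic intermediate 3-phosphoglycerate, and in mitochondria SHMT2 splits serine into glycine and a one-carbon unit that MTHFD2 passes on for purine and thymidylate synthesis. ASNS makes asparagine from aspartate and glutamine, PCK2 makes phosphoenolpyruvate in mitochondria, ALDH18A1 and PYCR1 catalyse the first and the last steps from glutamate to proline, and CTH releases cysteine from cystathionine. Many of them are textbook targets of ATF4, the transcription factor whose translation rises when amino acids run short or proteins misfold, and the ASNS promoter holds the best-studied site for it.

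The promoters of the 4 genes with the largest 72 h change are shown as a description of sequence. Whether their sites relate to the changes was not tested. Each runs from 250 bases before to 50 bases after an annotated start, 5′ to 3′ on the strand of the gene, and was taken from RefSeq for GRCh38.p14. For PCK2 and ASNS that start lies inside the RefSeq gene span (chr14:24094171-24104125 and chr7:97851677-97928441) and not at its 5′ end. Capitals mark, on either strand, TGATGNAA (the core of the element bound by ATF4 with C/EBP factors), GTTACA (a second element known from ASNS), CCAAT (the CCAAT box) and GGGCGG (the GC box, which reads CCGCCC on the other strand). PCK2 lies at chr14:24094061-24094360 on the forward strand, ASNS at chr7:97872359-97872658 on the reverse strand, PHGDH at chr1:119711684-119711983 and CTH at chr1:70411018-70411317, both on the forward strand.
PCK2: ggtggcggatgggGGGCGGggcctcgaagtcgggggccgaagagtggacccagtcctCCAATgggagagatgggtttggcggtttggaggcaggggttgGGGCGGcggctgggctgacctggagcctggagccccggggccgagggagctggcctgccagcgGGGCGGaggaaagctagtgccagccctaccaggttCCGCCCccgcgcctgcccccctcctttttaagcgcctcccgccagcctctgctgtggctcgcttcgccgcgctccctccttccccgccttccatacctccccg
ASNS: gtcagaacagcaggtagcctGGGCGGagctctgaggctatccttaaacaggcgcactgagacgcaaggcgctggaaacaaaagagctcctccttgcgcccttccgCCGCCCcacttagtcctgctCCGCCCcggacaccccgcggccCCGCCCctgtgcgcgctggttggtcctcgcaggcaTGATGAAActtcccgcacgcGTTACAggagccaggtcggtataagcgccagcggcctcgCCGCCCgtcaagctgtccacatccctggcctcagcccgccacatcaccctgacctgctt
PHGDH: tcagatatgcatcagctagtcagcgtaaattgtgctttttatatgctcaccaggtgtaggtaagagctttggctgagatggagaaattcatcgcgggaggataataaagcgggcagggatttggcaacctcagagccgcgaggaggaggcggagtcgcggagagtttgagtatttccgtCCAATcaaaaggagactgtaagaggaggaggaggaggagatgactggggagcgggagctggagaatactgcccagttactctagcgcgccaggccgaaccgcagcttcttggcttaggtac
CTH: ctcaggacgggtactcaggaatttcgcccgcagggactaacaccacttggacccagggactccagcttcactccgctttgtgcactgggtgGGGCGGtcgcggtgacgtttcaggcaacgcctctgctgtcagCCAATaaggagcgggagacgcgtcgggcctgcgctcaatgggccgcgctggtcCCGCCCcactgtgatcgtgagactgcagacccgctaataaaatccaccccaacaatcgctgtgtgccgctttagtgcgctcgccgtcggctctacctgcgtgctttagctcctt

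The table held 8 promoters of 7 of the 10 enzymes, ASNS with 2, and none for PSPH, SHMT2 and PYCR1. TGATGNAA occurred in 1 of the 8, the ASNS promoter above, as TGATGAAA from base -68 to base -61 at chr7:97872469-97872476, and in 3.62% of all 35116 promoters. GTTACA stood in the same ASNS promoter from base -48 to base -43 and in 6.66% of all promoters. CCAAT was present in 5 of the 8 promoters (PCK2, PHGDH, PSAT1, MTHFD2 and CTH), against 34.6% of all promoters. GGGCGG was in 5 of the 8 (both of ASNS, and those of PCK2, PSAT1 and CTH), against 44.95%. No motif overlapped another in the 4 sequences shown. The last 3 motifs were picked with the results in view, and these are counts of letters in a short window.

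The signals were read as deposited, on a linear intensity scale, and log2 transformed. A linear model (limma) over all 9 arrays was fitted to the 27306 probe sets whose mean signal lay above that of the median probe set, 18.0. A probe set was called where its p-value, adjusted by Benjamini-Hochberg over all of them, was under 0.05, and "rose" or "fell" is used of called changes alone. Each gene is given by its brightest probe set, which left 12682 genes, all 10 enzymes among them. Of the 19 probe sets of the enzymes 18 passed the filter, and the one left out was a dim second probe set of ASNS (6.89 to 11.7 on all arrays). SD and n = 3 apply to each mean below, and the interval of a fold change is the 95% interval of the fit.

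After 72 h of BRD7552, 7 of the 10 enzymes rose, 1 fell and 2 did not pass the test. The enzymes were chosen with earlier results of these data known. Their shares, medians and ranks beside all genes, at either time, are therefore no independent test. Over all genes measured, 7.62% were called higher and 16.4% lower at 72 h, and 19.8% of probe sets were called either way. The median log2 change of the 10 enzymes was 0.64, beside -0.06 over all genes. Signals of 9 of the 10 enzymes did not overlap between the 72 h and DMSO arrays, as was true of 36.9% of all genes. PCK2, ASNS, PHGDH and CTH rose at least 2-fold and ranked 3, 13, 14 and 21 by rise among the 12682 genes, followed by PSAT1 at 38, MTHFD2 at 473 and PSPH at 516. The balance of all calls moved with the scaling: 71.9% of called probe sets were lower at 72 h in the deposited values, 55.7% after quantile normalization and 54.0% after cyclic loess. The direction of all 10 enzymes was the same under each scaling.

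After 6 h the changes were few and smaller. Of the 10 enzymes 2 rose, PCK2 and ASNS, none fell, and 4 had an unadjusted p under 0.05. Over all genes 0.252% were called higher and 0.0552% lower at 6 h, and 0.194% of probe sets either way. The median log2 change of the enzymes was 0.12, beside -0.00098 over all genes. Groups did not overlap for 5 of the 10, as for 12.2% of all genes. Between the exposure times, 7 enzymes were higher and 1 lower at 72 h than at 6 h, against 6.41% of all genes called higher, 14.7% called lower and 17.5% of probe sets called either way. Of the called probe sets 74.3% were lower at 72 h than at 6 h in the deposited values, 55.6% after quantile normalization and 54.4% after cyclic loess. At 6 h 15.1% of called probe sets were lower than with DMSO, 23.8% after quantile normalization, 22.9% after cyclic loess and 0% after median centring. Both comparisons with DMSO share the same DMSO arrays.

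**Figure D1:**
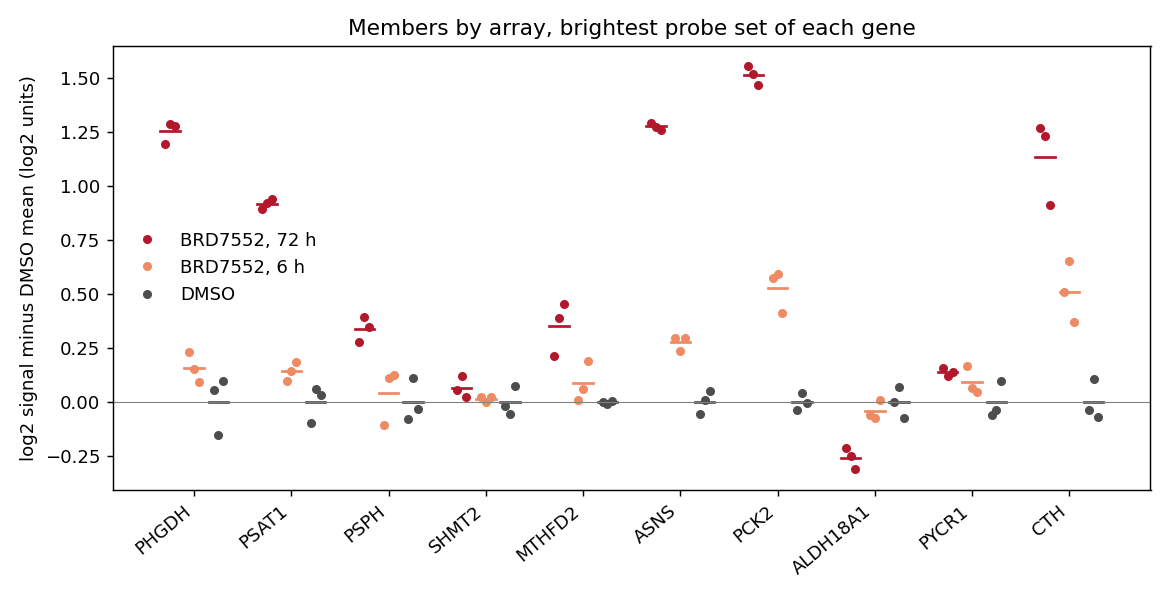
Log2 signal of each enzyme on each array minus its mean over the DMSO arrays (vertical axis, log2 units). Every point is an array, short lines are group means of 3 arrays, and colours give BRD7552 for 72 h, BRD7552 for 6 h and DMSO from left to right. PCK2, ASNS, PHGDH, PSAT1 and CTH stand highest at 72 h, while ALDH18A1 lies below DMSO.

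The first step of serine synthesis showed the largest rise within that pathway. PHGDH (probe set 201397_at), the dehydrogenase that takes 3-phosphoglycerate out of glycolysis, had signals of 438, 467 and 463 at 72 h, 224, 212 and 204 at 6 h, and 198, 172 and 204 with DMSO. The 72 h arrays were all above every other array, while the 6 h and DMSO arrays overlapped. Its 72 h mean was 456 ± 15.7, against 191 ± 17.3 with DMSO, a log2 change of 1.26 (SE 0.08, adjusted p = 1.95e-07) or 2.39-fold (2.12 to 2.69). At 6 h the fold was 1.12 (0.990 to 1.26), which did not pass. One further probe set of this platform carries the symbols of PHGDH and of 2 other genes and was not used.

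PSAT1, the aminotransferase of the second step, rose on both of its probe sets. The brighter one (223062_s_at) gave 3945, 4024 and 4070 at 72 h, 2267, 2341 and 2415 at 6 h, and 1985, 2214 and 2169 with DMSO. All 72 h arrays were above all others, and all 6 h arrays lay just above the DMSO arrays. The 72 h mean of 4013 ± 63.3, against 2123 ± 121 with DMSO, was a log2 change of 0.92 (SE 0.04, adjusted p = 1.34e-08), and the second probe set changed by 0.69 (SE 0.08, adjusted p = 3.48e-05). At 6 h the log2 change of 0.14 had an adjusted p of 0.746 and was not called.

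PSPH, the phosphatase that completes serine, changed less. Its brightest probe set (205048_s_at) read 758, 821 and 796 at 72 h, 581, 675 and 682 at 6 h, and 592, 675 and 611 with DMSO. The 72 h arrays stood above all others and the 6 h arrays spanned the DMSO range. The means were 792 ± 31.6 at 72 h and 626 ± 43.4 with DMSO, a log2 change of 0.34 (SE 0.07, adjusted p = 0.00398). A second probe set (205194_at) rose by 0.54 (SE 0.09, adjusted p = 0.000647), and its dimmest one (244819_x_at, of a type whose probes can match several transcripts) changed by -0.22 (SE 0.16, adjusted p = 0.414). When the probe sets were averaged, the PSPH change of 0.22 had an adjusted p of 0.0583. PSPH has near-identical copies in the genome, so part of its signal is uncertain in origin.

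SHMT2, which follows in mitochondria, did not pass on any of its 3 probe sets. Its brightest probe set (214096_s_at) had 1100, 1150 and 1074 at 72 h, 1074, 1059 and 1074 at 6 h, and 1044, 1018 and 1112 with DMSO, so all groups overlapped. The 72 h fold was 1.05 with an interval of 0.975 to 1.13 (adjusted p = 0.377), and the 6 h fold 1.01 with an interval of 0.941 to 1.09. The other probe sets changed by 0.03 and 0.07 log2 units at 72 h.

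MTHFD2, the next mitochondrial enzyme, rose modestly. Signals of probe set 201761_at were 5450, 6150 and 6438 at 72 h, 4728, 4902 and 5353 at 6 h, and 4705, 4672 and 4720 with DMSO. The DMSO arrays were nearly identical, and the 72 h arrays spread more widely and lay above all others. The mean was 6012 ± 508 at 72 h, against 4699 ± 24.8 with DMSO, a log2 change of 0.35 (SE 0.06, adjusted p = 0.000578). A dim probe set of the type that can match several transcripts (234976_x_at) changed by 0.09 (SE 0.13, adjusted p = 0.683).

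ASNS, asparagine synthetase, was high on every array, with a small spread within groups. Probe set 205047_s_at had 3653, 3596 and 3571 at 72 h, 1828, 1752 and 1828 at 6 h, and 1429, 1497 and 1540 with DMSO. The 3 groups formed separate steps with no overlap. Its 6 h replicates 1 and 3 had exactly equal signals (1827.74), which can make the 6 h spread look too small. The 72 h mean of 3607 ± 41.8, against 1489 ± 55.6 with DMSO, was a log2 change of 1.28 (SE 0.04, adjusted p = 2.92e-10) or 2.42-fold (2.28 to 2.57). The 6 h mean of 1802 ± 43.9 was a log2 change of 0.28 (SE 0.04, adjusted p = 0.00639). The 72 h arrays were 1.00 log2 unit above the 6 h arrays (adjusted p = 4.08e-09). Among the 7 enzymes with a promoter in the table, it was the one with TGATGNAA.

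PCK2, mitochondrial phosphoenolpyruvate carboxykinase, had the largest rise of the 10 at both times. Its single probe set (202847_at) gave 334, 326 and 314 at 72 h, 169, 172 and 151 at 6 h, and 111, 117 and 113 with DMSO. Here too the groups formed separate steps. The mean was 325 ± 10.2 at 72 h, against 114 ± 3.16 with DMSO, a log2 change of 1.52 (SE 0.08, adjusted p = 5.12e-08) or 2.86-fold (2.53 to 3.23). At 6 h the mean was 164 ± 11.1 and the log2 change against DMSO 0.53 (SE 0.08, adjusted p = 0.0126), rank 19 by rise among all genes.

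Both 6 h calls rested on single arrays and on the fit. Without DMSO replicate 1 the adjusted p at 6 h was 0.0571 for ASNS and 0.111 for PCK2. The ASNS call was also lost without 6 h replicate 3 (0.0509), and that of PCK2 without DMSO replicate 3 (0.0900), 6 h replicate 1 (0.0749) or 6 h replicate 2 (0.134). Centring each array on its median gave 0.436 for ASNS and 0.0689 for PCK2, and a fit without the mean-variance trend 0.396 and 0.0596. The log2 changes themselves stayed between 0.25 and 0.30 for ASNS and between 0.47 and 0.59 for PCK2 over the 21 alternatives.

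Of the proline enzymes 1 fell and 1 did not pass. ALDH18A1, which makes the precursor of proline and ornithine from glutamate, had 543, 530 and 507 at 72 h, 603, 599 and 633 at 6 h, and 630, 661 and 599 with DMSO (222416_at). Its 72 h arrays were the lowest and the other groups overlapped. The mean was 526 ± 18.2 at 72 h, against 630 ± 31.1 with DMSO, a log2 change of -0.26 (SE 0.06, adjusted p = 0.00571), and the second probe set (217791_s_at) fell too, with a change of -0.34 (SE 0.07, adjusted p = 0.00302). Median centring left -0.22 for the brighter one, with an adjusted p of 0.116. PYCR1, the reductase that completes proline, had 348, 338 and 343 at 72 h, 350, 326 and 322 at 6 h, and 299, 304 and 333 with DMSO. All 72 h arrays were above the DMSO arrays, but the log2 change of 0.14 (SE 0.07, adjusted p = 0.177; fold interval 0.996 to 1.22) did not pass. After cyclic loess it was 0.20 with an adjusted p of 0.0460.

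CTH, which ends transsulfuration by releasing cysteine, also rose more than 2-fold, with a wider error. Probe set 217127_at had 120, 117 and 93.4 at 72 h, 70.8, 78.1 and 64.3 at 6 h, and 48.5, 53.4 and 47.3 with DMSO. The groups did not overlap, and 72 h replicate 3 was the lowest of its group. The 72 h mean was 110 ± 14.4, against 49.7 ± 3.23 with DMSO, a log2 change of 1.14 (SE 0.13, adjusted p = 4.52e-05) or 2.20-fold (1.81 to 2.68). At 6 h the change was 0.51 (SE 0.13), close to that of PCK2, but with this wider error the adjusted p was 0.360. With arrays weighted by quality it was 0.53 and called (adjusted p = 0.0130). A second, dimmer probe set (206085_s_at) rose at 72 h by 0.67 (SE 0.16, adjusted p = 0.00986), a call lost without DMSO replicate 3 (adjusted p = 0.0513).

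**Figure D2:**
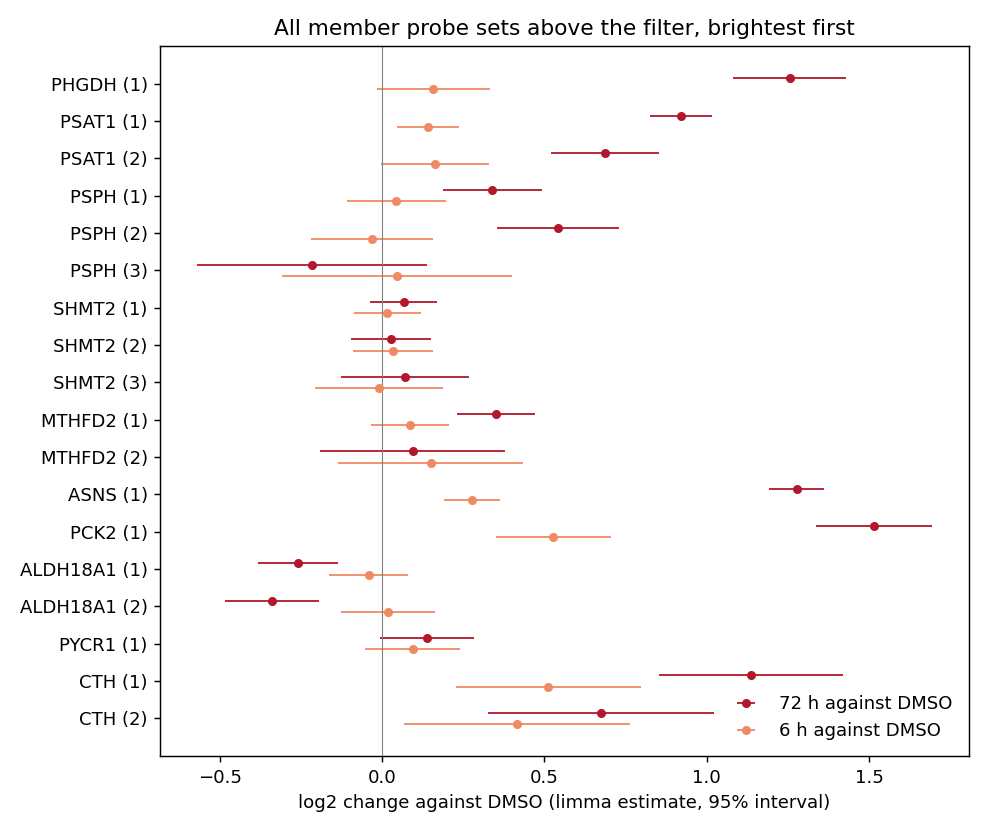
Log2 change against DMSO (horizontal axis) of the 18 probe sets of the enzymes above the filter, numbered within a gene from the brightest. Points are limma estimates and bars 95% intervals over 3 arrays a group, for 72 h and for 6 h. Probe sets of PSAT1, ALDH18A1 and CTH keep the direction of the brightest one at 72 h, and the dimmest probe set of PSPH lies at -0.22 with an interval that spans 0.

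In all, 12 of the 18 probe sets were called at 72 h, 10 higher and 2 lower, and 2 at 6 h, both higher. Across probe sets of a single gene, no 2 were called in opposite directions. The 72 h arrays varied more over all genes (median SD 0.130 log2 units) than the 6 h arrays (0.0750) and the DMSO arrays (0.0667). For the enzymes the SD ran from 0.0167 to 0.197 at 72 h, 0.0118 to 0.141 at 6 h and 0.00763 to 0.134 with DMSO. Exactly equal signals on 2 or more arrays occurred for 9 of the 18 probe sets and for 59.2% of all probe sets, which can make a spread look too small.

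The difference between the exposure times was itself tested. PHGDH was 1.10 log2 units higher at 72 h than at 6 h (adjusted p = 1.16e-06), ASNS 1.00 (4.08e-09), PCK2 0.99 (3.55e-06) and PSAT1 0.78 (1.2e-07). CTH was 0.63 higher (adjusted p = 0.00527), PSPH 0.30 (0.0107) and MTHFD2 0.27 (0.00494), while ALDH18A1 was lower, at -0.22 (0.0177). SHMT2 and PYCR1 did not pass between the times.

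**Figure D3:**
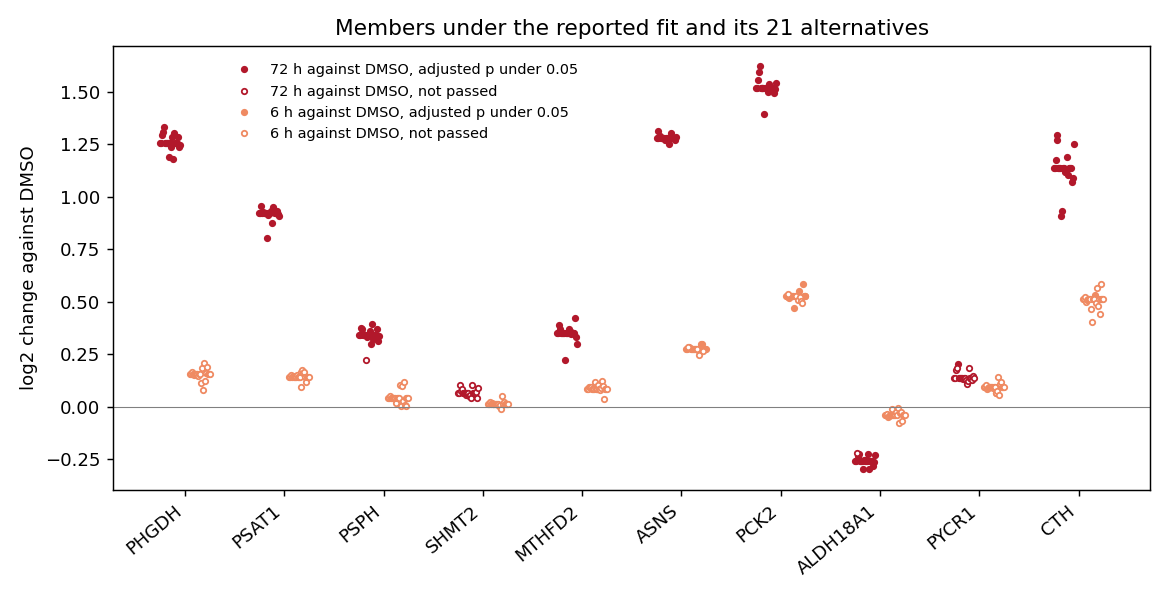
Log2 change against DMSO (vertical axis) of each enzyme under the fit reported and its 21 alternatives, left column 72 h and right column 6 h. Filled points have an adjusted p under 0.05 and open points do not. The 72 h calls of PHGDH, PSAT1, MTHFD2, ASNS, PCK2 and CTH held under all alternatives.

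Enzymes or relatives of a member's reaction, family or pathway were set beside the members as the difference of their log2 signals on each array. Where the partner passed the filter this gave 5 pairs at 2 times, 10 comparisons in all, tested by two-sided exact permutation of 3 against 3 arrays, for which 0.1 is the smallest p and no pair can pass 0.05. Each pair value is the change of this log2 difference against DMSO, and not a gap between levels. ASNS and the ASNS-domain gene ASNSD1 had differences in change of 1.48 at 72 h and 0.30 at 6 h (each p = 0.1, adjusted 0.2 by exact permutation), with no overlap of arrays. ASNSD1 itself fell by 0.20 at 72 h (limma, adjusted p = 0.00628), a call lost with median centring (-0.16, adjusted p = 0.213) and without the trend (0.0530). The change of CTH exceeded that of CBS, the enzyme before it in transsulfuration, by 0.58 at 72 h (exact permutation p = 0.1, adjusted 0.2). CBS rose as well, to 224, 253 and 191 at 72 h, against 137, 150 and 165 with DMSO. At 6 h the difference in change was 0.27, with overlapping arrays (exact permutation p = 0.3), and 0.16 without DMSO replicate 3.

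The change of MTHFD2 exceeded that of MTHFD1, its cytosolic counterpart, by 0.49 at 72 h and 0.11 at 6 h. Arrays did not overlap (exact permutation p = 0.1, adjusted 0.2 for each). Without 6 h replicate 3 the 6 h difference was 0.05. MTHFD1 fell at 72 h with a log2 change of -0.13 (limma, adjusted p = 0.0248). That call was lost without DMSO replicate 1 (0.0664), DMSO replicate 3 (0.115) or 72 h replicate 3 (0.0745), with median centring (0.476) and without the trend (0.144). Against MTHFD2L, a second mitochondrial form, the difference in change was 0.41 at 72 h (exact permutation p = 0.4). At 6 h it was 0.03 (p = 0.8 by the same exact test), and arrays overlapped at both times. The 72 h difference was 0.21 without 72 h replicate 3 and 0.67 without 72 h replicate 1. The change of PYCR1 minus that of PYCR3 was 0.33 at 72 h (exact permutation p = 0.2) and 0.05 at 6 h (p = 0.6, exact permutation), also with overlap. It was 0.20 at 72 h without 72 h replicate 2. At 6 h the differences in change for the MTHFD2L and PYCR3 pairs lay between -0.03 and 0.11 and between -0.02 and 0.12 with single arrays left out. The partners PCK1 (mean signal 7.08), SHMT1 (9.22) and MTHFD1L (9.83) were dim and not compared.

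Other genes of the surrounding pathways changed in both directions. In 8 lists, 97 genes were measured beside the members: at 72 h 16 rose, 30 fell and 51 did not pass, with a median log2 change of -0.07. That is 16.5% higher and 30.9% lower, beside 7.62% and 16.4% of all genes. At 6 h 4 rose, 0 fell and 93 did not pass. All 4 of the 6 h calls were in the list of transcription factors and kinases of the amino acid response. In no other list was a gene called at 6 h. A further 13 list genes were dim and 13 were not analysed here. The lists were chosen with results known.

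Of 7 serine and glycine genes, DLD, the shared dehydrogenase subunit of glycine cleavage, rose by 0.15 at 72 h. GLDC, the glycine decarboxylase, and SRR, serine racemase, fell with changes of -0.55 and -0.47, and 4 genes did not pass. The GLDC call was lost without DMSO replicate 1 (adjusted p = 0.0562), DMSO replicate 2 (0.0625) or 72 h replicate 3 (0.0545). Of 15 folate genes above the filter none rose and 5 fell, among them the folate receptor FOLR1 (-0.62), methionine synthase MTR (-0.39), and the folate carriers SLC19A1 (-0.37) and SLC25A32 (-0.29). ALDH1L2, a mitochondrial folate dehydrogenase of this list, was below the filter on its mean over all arrays, with 27.8, 20.4 and 18.0 at 72 h, 10.2, 10.7 and 13.0 at 6 h, and 10.1, 11.5 and 10.04 with DMSO. In a fit without the filter its 72 h log2 change was 1.05 (SE 0.16, adjusted p = 0.00157), with no overlap of the 72 h and DMSO arrays. The SLC19A1 call was lost without DMSO replicate 2 (adjusted p = 0.0583). Of 12 purine synthesis genes 5 fell, with IMPDH1 at -0.39, GMPS at -0.29 and PRPS2 at -0.28, and 1, the adenylosuccinate synthase ADSS1, rose by 0.62. PRPS2 was not called without DMSO replicate 2 (adjusted p = 0.0651).

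Of 11 methionine, transsulfuration and glutathione genes 4 rose, CBS by 0.56 and the methionine adenosyltransferase subunit MAT2B by 0.37 among them, and 3 fell, with the sulfur enzymes MPST at -0.54 and ETHE1 at -0.50. Of 12 proline, glutamate and arginine genes none rose and 5 fell. Glutamine synthetase GLUL changed by -0.65, the urea cycle enzymes ASL and ASS1 by -0.64 and -0.42, and ornithine decarboxylase ODC1 by -0.26. Of 14 aspartate, alanine and phosphoenolpyruvate genes 3 rose and 2 fell. The cytosolic transaminase GOT1 rose by 0.34 and malate dehydrogenase MDH1 by 0.12, and the mitochondrial transaminase GOT2 fell by 0.24. Of 10 genes of lower glycolysis none rose and 3 fell: ENO2 at -0.71, LDHA at -0.16 and ENO1 at -0.14.

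Of 16 factors and kinases of the amino acid response, 7 rose, 5 fell and 4 did not pass at 72 h. TRIB3, a pseudokinase and ATF4 target, had 866, 830 and 870 at 72 h, 626, 657 and 636 at 6 h, and 371, 375 and 380 with DMSO, in 3 separate steps. It rose by 1.19 at 72 h and 0.77 at 6 h (adjusted p = 4.46e-09 and 4.99e-06). ATF4 rose by 0.59 at 72 h and 0.44 at 6 h, with 2921, 2515 and 2576 at 72 h, 2363, 2492 and 2331 at 6 h, and 1757, 1760 and 1779 with DMSO. DDIT3, the transcription factor CHOP, rose by 0.72 at 6 h. It was 0.34 log2 units lower at 72 h than at 6 h, a drop smaller than its 6 h rise against DMSO. CEBPB rose by 0.33 at 6 h, a call lost without DMSO replicate 3 (adjusted p = 0.0773) or 6 h replicate 3 (0.0530), with median centring (0.190) and without the mean-variance trend (0.231). The ATF4 call at 6 h was also lost without the trend (0.159). ATF3 rose by 0.52 and PPP1R15A, a phosphatase subunit of the same response, fell with a change of -0.53 at 72 h. Of the 30 list genes named at 72 h, 16 lost their call under 1 or more alternatives. With median centring the calls of ODC1, GMPS, PRPS2, GOT2, ASNSD1, LDHA and ENO1 were lost, with adjusted p from 0.0559 to 0.385. Those of PRPS2, ASNSD1, LDHA and ENO1 were also lost without the trend (0.0514 to 0.113), and those of GMPS (0.180) and PRPS2 (0.114) with the mean of the probe sets. The calls of SRR, DLD, FOLR1, ASS1, MDH1, ADSS1 and ATF3 at 72 h were each lost under 9 to 14 of their alternatives.

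**Figure D4:**
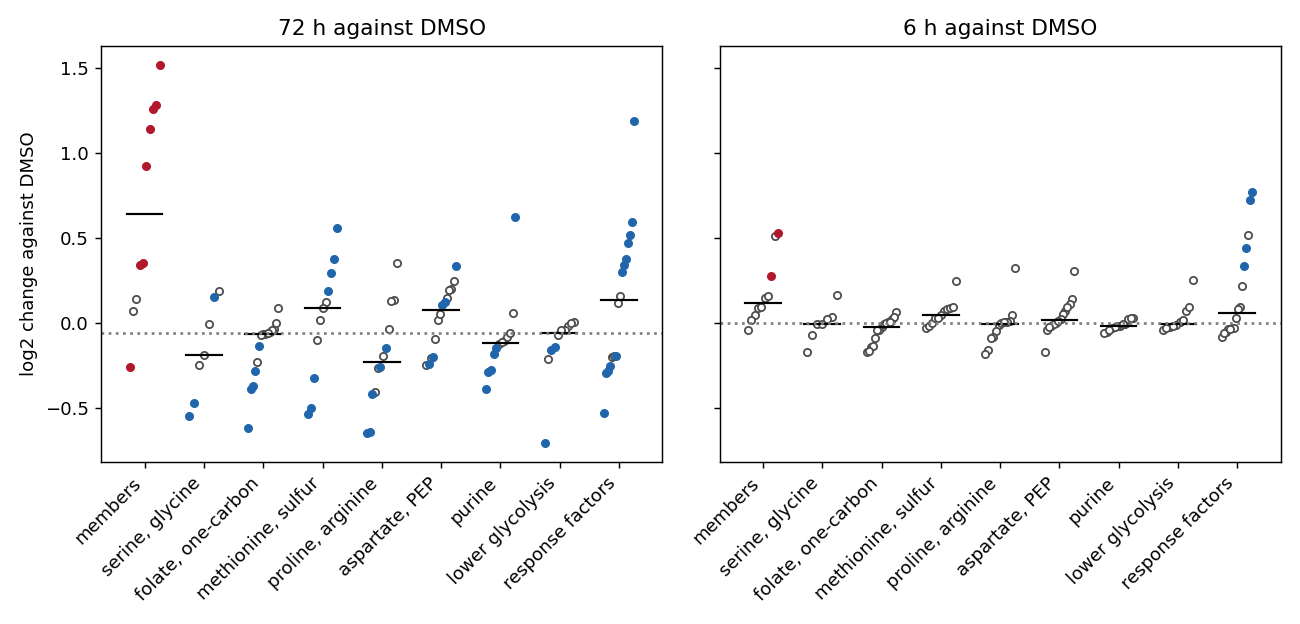
Log2 change against DMSO (vertical axis) of the members and of the genes of 8 lists, each point a gene, for 72 h (left) and 6 h (right). Filled points were called and open points were not, short bars are list medians, and the dotted line is the median of all genes. The members' median at 72 h was 0.64, while the lists' medians lay between -0.23 and 0.14.

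The genes whose levels over the 9 arrays most resembled the mean of the 10 enzymes were NFIX (Pearson r = 0.993), SLC2A4RG (0.988), LAMP3 (0.987), OCLN (0.985) and ZDHHC7 (0.985). MXRA8 and SLC1A4, a transporter of serine and alanine, followed at 0.982, then MKNK2 (0.982), CEBPA (0.981) and CCNG1 (0.976). They were ranked among genes outside the members whose group means spanned at least 0.5 log2 units. The 9 arrays fall into 3 groups, so that these values describe the order of the groups. Exactly equal signals between 6 h arrays occurred for NFIX (452), SLC2A4RG (255), OCLN (1785) and CCNG1 (1810). LAMP3 had 79.1 on all 6 h arrays. Such ties can make a spread look too small, and their part in these correlations was not tested. SLC1A4 had 148, 147 and 141 at 72 h, 97.1, 106 and 103 at 6 h, and 78.1, 84.4 and 82.6 with DMSO, a 1.78-fold rise at 72 h. CEBPA rose 2.74-fold and MKNK2 2.37-fold at 72 h. CEBPA was near the filter with DMSO (18.7 to 21.4), and its log2 change of 1.45 was 0.98 on the scale of log2(signal + 16), against 1.24 and 1.23 for MKNK2. Against the same mean profile, of which each is a part, the members ran from 0.986 for ASNS and 0.979 for PCK2 down to 0.695 for SHMT2, and ALDH18A1 ran opposite at -0.912.

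Signals of the whole arrays set the frame for these values. Median signals were 16.2 to 18.8, and 72 h replicates 2 and 3 had upper quartiles of 97.2 and 99.5, against 112 to 119 on the other arrays. The 3′ to 5′ signal ratio of ACTB, a sign of RNA integrity, was 2.07 to 2.21 at 72 h, 1.74 to 2.05 at 6 h and 1.91 to 2.01 with DMSO, and that of GAPDH 1.34 to 1.39, 1.27 to 1.31 and 1.31 to 1.35 in the same order. The 72 h arrays correlated less with each other (mean Spearman 0.958 to 0.971) than the other arrays did within their groups (0.985 to 0.990). Leaving out any single array kept 8 of the 10 enzymes called at 72 h, and the part of these differences in the results was not tested.

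Markers of duct and simple epithelium were above the filter for 7 of 7 measured genes (KRT7, KRT8, KRT18, KRT19, EPCAM, CDH1 and SOX9). Their summed signal was 27466 to 29335 at 72 h, 34662 to 34787 at 6 h and 34306 to 35159 with DMSO, so the 72 h arrays were lower without overlap, and its part in the results was not tested. Islet markers were above the filter for 0 of 4, leukocyte markers for 0 of 4, acinar markers for 1 of 4 (CELA3A), endothelial markers for 1 of 4 (PECAM1) and fibroblast markers for 2 of 5 (COL1A1 and DCN). In RNA of a whole culture, fewer cells that carry a transcript and less of it per cell cannot be told apart.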

How the data were processed

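Total RNA of PANC-1 cells was profiled on 9 Affymetrix arrays, 3 each for BRD7552 at 5 uM for 72 h, BRD7552 at 5 uM for 6 h, and DMSO. The authors deposited linear intensity per probe set, made with MAS5 per the submitters' processing notes. No version or scaling target is given in the sources used here. Equal values on 2 or more arrays, found for 59.2% of probe sets, are unusual for MAS5, and how the intensity was summarised is therefore uncertain. Symbols came from the platform's probe table, in which 41091 probe sets had 1 symbol, 1801 several and 11721 none. Of the former 41037 matched a current RefSeq record by identifier, and those with several symbols named no gene.

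Values were log2 transformed without pseudocount or further normalization. The 62 control probe sets and those with a mean at or below the median were left out, which kept 27306. limma 3.58.1 in R 4.3.3 (lmFit, then eBayes allowing the variance a trend with the mean) was fitted to all 9 arrays with 6 residual degrees of freedom and one shared spread, and adjusted by Benjamini-Hochberg. The number of arrays limits the precision. Enzyme pairs used two-sided exact permutation tests in Python 3.11.15 with scipy 1.17.1. Named genes were all 10 members, their pair partners, up to 4 called genes of each list per comparison by size of change, and the 10 genes most alike. The members and lists were chosen with earlier results of these data known. Alternatives changed the normalization, the filter, the choice of probe set, the model and the arrays, 1 choice at a time. The scripts were tested on simulated data.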

Additional observations from a re-analysis of the deposited data

Results flagged for a closer look

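The change between 6 h and 72 h of BRD7552 was itself tested (limma, 72 h minus 6 h), and 36 genes with an adjusted p under 0.05 are given here. They are the called members and, from each list, the called genes with the largest changes up to a set number. They are not all the genes that differed. Of the 97 list genes tested, 9 were called higher and 26 lower at 72 h than at 6 h, beside 6.41% and 14.7% of all genes. Among the members the log2 differences were 1.10 for PHGDH, 1.00 for ASNS, 0.99 for PCK2, 0.78 for PSAT1, 0.63 for CTH, 0.30 for PSPH, 0.27 for MTHFD2 and -0.22 for ALDH18A1. The ALDH18A1 call was lost without 6 h replicate 3 or 72 h replicate 3, with median centring and without the mean-variance trend. Those of PSPH and MTHFD2 were lost when probe sets were averaged and without the trend.

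Most of the other genes given were lower at 72 h, as were 74.3% of all called probe sets in the deposited values. That share was 55.6% after quantile normalization and 54.4% after cyclic loess. The sulfur enzymes MPST and ETHE1 differed by -0.56 and -0.53, ASL by -0.64, GLUL by -0.46, ASS1 by -0.42 and ODC1 by -0.22. GLDC was at -0.54, GATM at -0.35, SLC19A1 at -0.38, MTR at -0.35 and SLC25A32 at -0.15. In purine synthesis IMPDH1 differed by -0.38, GMPS by -0.25, PRPS2 by -0.22 and IMPDH2 by -0.14. In glycolysis ENO2 differed by -0.96, LDHA by -0.14 and ENO1 by -0.11. GOT2 was at -0.24 and ASNSD1 at -0.18. Higher at 72 h were MAT2B by 0.30, MAT2A by 0.22, GOT1 by 0.20 and MDH2 by 0.11. Of the 16 amino acid response genes, 4 were called higher and 5 lower. Among the 4 largest of these changes, TRIB3 was 0.42 higher, and DDIT3, EIF2AK3 and PPP1R15A differed by -0.34, -0.37 and -0.50. Of the 28 calls given here outside the members, 17 were lost under 1 or more alternatives, and 7 of those under more than 5 (GLDC, GATM, SLC25A32, ASS1, MDH2, PRPS2 and IMPDH2).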

How the results depend on the processing

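Of the 10 members, 8 were called at 72 h against DMSO, and 7 to 9 under 12 other settings and 8 without any single array. Beside PSPH, PYCR1 and ALDH18A1, whose values stand with the results, no member's 72 h call changed. At 6 h 2 members were called, 0 with median centring, 0 without the mean-variance trend, 3 with array weights, and 0 to 2 without single arrays. Between the times 8 were called, 5 without the trend and 7 to 8 without single arrays. No called change of a member, a pair partner or another named gene reversed under the alternatives run for it. Over all probe sets, 53 were called at 6 h, 25 with median centring, 84 with quantile normalization, 83 with cyclic loess, 12 without the trend, 191 with array weights and 32 to 65 without single arrays. At 72 h the 5417 calls became 3263 with median centring and 3261 to 7700 without single arrays, and between the times 4772 became 2755 and 3083 to 7381. Testing 1 probe set per gene gave 3382 and 3045 calls, and the mean of the probe sets per gene 3014 and 2649, over fewer features. Of the list counts at 72 h over all alternatives, the calls lower moved from 2 to between 0 and 2 for serine and glycine, 5 to between 3 and 6 for folate, 5 to between 2 and 6 for proline and arginine, 5 to between 1 and 6 for purine synthesis, 3 to between 1 and 4 for glycolysis, 2 to between 0 and 3 for aspartate, 3 to between 2 and 3 for methionine, and 5 to between 2 and 6 for response factors. Calls higher moved from 3 to between 1 and 7 for aspartate, 4 to between 3 and 5 for methionine, 7 to between 6 and 8 for response factors, and 1 to between 0 and 1 for both serine and glycine and purine synthesis. The difference in change between CTH and CBS at 72 h was 0.42 with log2(signal + 16). TGATGNAA with C in the middle was in 0 of the 8 promoters. Otherwise the cause of these shifts was not tested.

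The replicate numbers gave no pairing: deviations of same-numbered arrays correlated between -0.255 and 0.195. With the number as a replicate block, 2, 8 and 8 members were called at 6 h, at 72 h and between the times, and 45, 4786 and 4194 probe sets over all of them. Dim probe sets and 3 arrays a group limit what can be seen at 6 h.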
